A study of Mus musculus with 24 samples.

Results

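Genes with roles best known outside the T lineage were followed array by array in a mouse T-cell leukaemia line: Pdgfrb, Csf1r, Chit1, Cdh1 and Cdh17, 5 of the 19938 genes measured with a single gene symbol. Pdgfrb, Chit1, Cdh1 and Cdh17 were chosen by their measured log2 differences between the Notch constructs on these same arrays, and Csf1r because it lies beside Pdgfrb on chromosome 18. Each gene was read from 1 probe set. The construct differences of the 4 genes chosen for their response are therefore given as a description with no p-value. Csf1r, the responses to the inhibitor and the genes around the 5 were tested. The inhibitor responses share their arrays with those construct differences, so for the 4 genes their tests are not free of the choice.

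All samples were T6E cells, a Notch1-dependent mouse T-cell acute lymphoblastic leukaemia line, transfected with a construct and then given 1 uM compound E, which inhibits gamma-secretase (GSI), or DMSO, in each case for 6 hours. R1984A cells carried an intracellular Notch1 that is defective in dimerization, ICN1 cells carried intracellular Notch1, DNMAML cells carried a dominant negative form of the coactivator Mastermind-like (MAML), and MigR1 cells carried the empty vector. Each of the 4 constructs was measured under both treatments with 3 arrays, which gives 24 arrays in 8 groups, named here by construct and treatment (R1984A-GSI, R1984A-DMSO and so on). The cells are of 1 line that was already Notch-driven, so MigR1-DMSO cells were not free of Notch signal, and MigR1-GSI cells were the empty-vector cells with cleavage blocked. All values are log2 expression values as deposited, and a difference is first-named group minus second-named group on that scale, with its standard error (SE) from limma. RNA came from whole cultures, so more cells expressing a gene and more RNA per cell cannot be told apart, here or in any result that follows.

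Notch receptors are cleaved by gamma-secretase after ligand binding or activating mutation, and the freed intracellular part enters the nucleus, where it forms a complex with the DNA-binding protein RBPJ and with MAML. At some genes a pair of such complexes dimerizes on a head-to-head pair of RBPJ motifs, and a dimerization-defective Notch1 loses its grip on those sites while it can still act at single sites. Pdgfrb encodes the receptor tyrosine kinase for PDGF-B, best known in pericytes, vascular smooth muscle and fibroblasts. Csf1r encodes the receptor of the macrophage colony-stimulating factor, of the same kinase class, and is best known in monocytes and macrophages. Chit1 encodes chitotriosidase, a secreted chitinase best known from activated human macrophages. Cdh1 encodes E-cadherin, the adhesion molecule of epithelial junctions, and Cdh17 encodes LI-cadherin, a cadherin of intestinal epithelium that in the mouse also occurs on B-lineage cells.

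Notch1, of which R1984A and ICN1 are forms, was read first. Notch1 averaged 7.07 in R1984A-GSI and 7.32 in ICN1-GSI cells, against 5.66 in MigR1-GSI cells. R1984A minus ICN1 was -0.25 in GSI and -0.27 in DMSO (SE 0.13 each, limma adjusted p = 0.62 and 0.68). Under each treatment all R1984A arrays lay below all ICN1 arrays, so equal Notch1 RNA in R1984A and ICN1 cells cannot be assumed. MigR1 cells gave a Notch1 signal with no added Notch1, so added and own Notch1 RNA cannot be told apart in these values. Without added Notch1, MigR1-GSI minus MigR1-DMSO was -0.56 and DNMAML-DMSO minus MigR1-DMSO was -0.46 (limma adjusted p = 0.11 and 0.066). DNMAML-GSI minus MigR1-GSI was 0.15. The part of Notch1 level in the R1984A minus ICN1 differences that follow was not tested. Of 10 measured T-cell markers 9 averaged above the highest array median, with Cd3e at 10.40. Markers of the other cell types named above lay low: 2 of 17 monocyte and macrophage genes, 4 of 14 mural and fibroblast genes, 2 of 12 epithelial genes, 2 of 7 intestinal genes and 2 of 7 B-cell genes averaged above the highest array median. The labels do not say whether arrays of 1 group stand for separate cultures, and the p-values reflect the spread among arrays alone, which could be technical.

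Pdgfrb (chr18:61045127-61085067, GRCm38.p6) was highest in cells with the dimerization-defective Notch1. Its values were 8.84, 8.97 and 9.24 in R1984A-GSI cells, 7.91, 8.12 and 8.35 in ICN1-GSI cells, 6.47, 6.27 and 6.38 in DNMAML-GSI cells, and 6.61, 6.46 and 6.36 in MigR1-GSI cells. In DMSO they were 8.89, 9.0 and 9.16 in R1984A cells, 7.89, 8.01 and 8.62 in ICN1 cells, 6.53, 6.53 and 6.35 in DNMAML cells, and 7.11, 6.97 and 7.20 in MigR1 cells. All 6 R1984A arrays lay above all 6 ICN1 arrays, and all 6 ICN1 arrays lay above every DNMAML and MigR1 array. The receptor was measured above the median of its own array on all 24 arrays, so it was not silent in cells without added Notch1.

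The difference from MigR1 was 2.54 for R1984A and 1.65 for ICN1 in GSI, and 1.92 for R1984A and 1.08 for ICN1 in DMSO (SE 0.16 each). R1984A minus ICN1 was 0.89 in GSI and 0.84 in DMSO. By size of rise Pdgfrb stood in place 2 of the 19938 genes in R1984A-GSI and in place 3 in R1984A-DMSO. DNMAML minus MigR1 was -0.10 in GSI, with overlapping arrays, and -0.63 in DMSO, with separate arrays. In order of level the groups ran R1984A-GSI, R1984A-DMSO, ICN1-DMSO, ICN1-GSI, MigR1-DMSO, MigR1-GSI, DNMAML-DMSO and DNMAML-GSI, and between neighbours in that order arrays were separate only between R1984A and ICN1, between ICN1 and MigR1-DMSO, and between MigR1-DMSO and MigR1-GSI. ICN1-DMSO replicate 3, at 8.62, was the array farthest from its group. Without it, the ICN1-DMSO minus MigR1-DMSO difference was 0.85 and R1984A-DMSO minus ICN1-DMSO was 1.07.

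**Figure D1:**
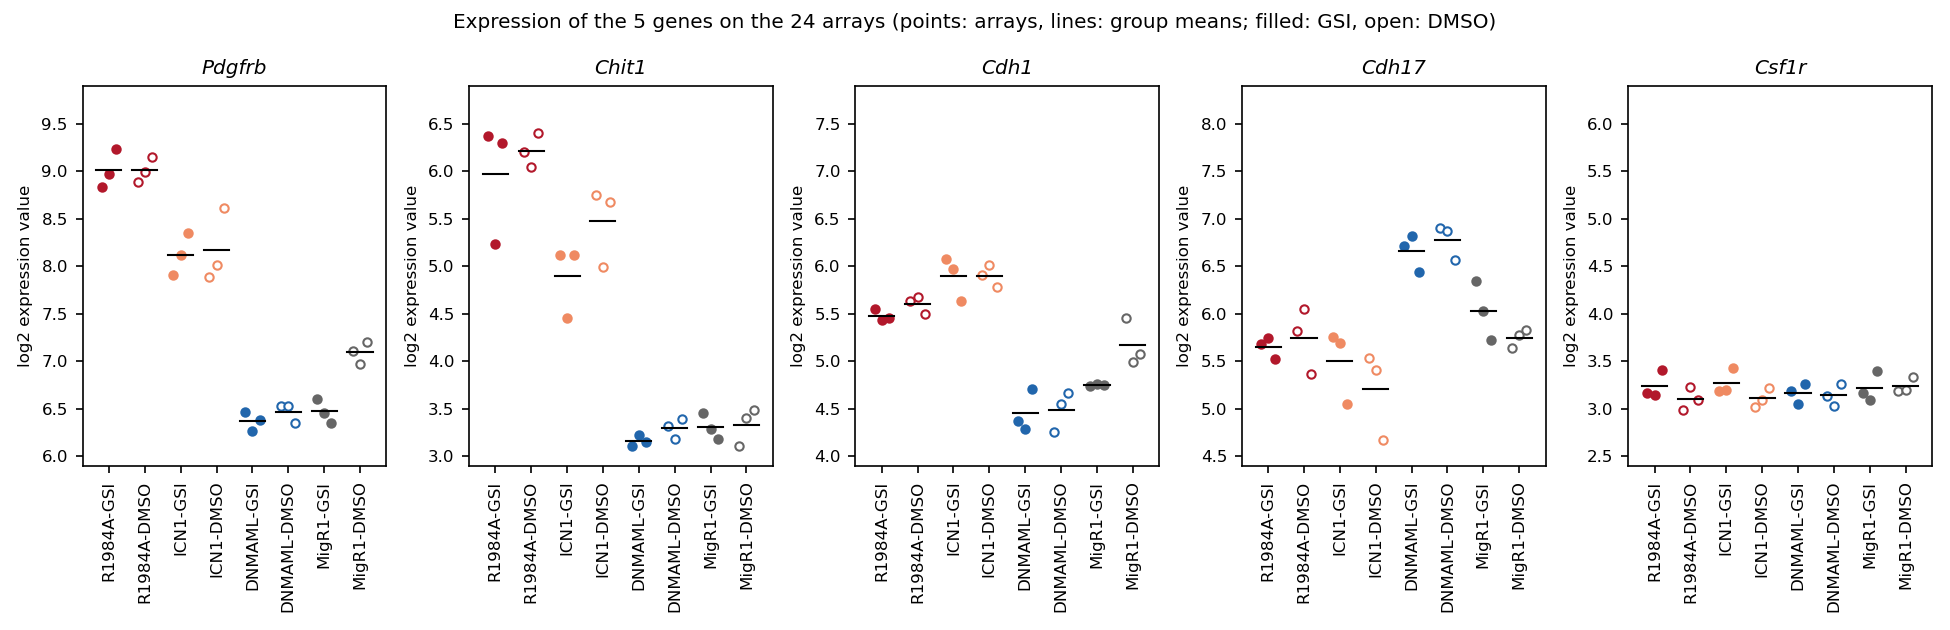
Deposited log2 expression of the 5 genes on each array, with 1 panel per gene; points are arrays, horizontal bars are means of 3 arrays and groups are construct and treatment. Pdgfrb and Chit1 stand highest in R1984A cells, Cdh1 in ICN1 cells, Cdh17 in DNMAML cells, and Csf1r stays between 2.99 and 3.43.

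Csf1r (chr18:61105572-61131139) begins 20.5 kb beyond the end of Pdgfrb and was dim in every group. Its values lay between 2.99 and 3.43 on all arrays, below the median of the own array on 24 of 24. The group means spanned 0.17 on the log2 scale. R1984A-GSI minus MigR1-GSI was 0.02 (SE 0.11, 95% interval -0.21 to 0.26, limma adjusted p = 1.00), beside 2.54 for Pdgfrb in the same pair of groups. ICN1-GSI minus MigR1-GSI was 0.05 (95% interval -0.18 to 0.29, limma adjusted p = 0.95). Across all 15 contrasts the lowest limma adjusted p of Csf1r was 0.89. At a level this dim a change of RNA may be compressed, so the intervals bound only the difference on the deposited scale. Replicate 3 was the highest array in 7 of the 8 groups, so part of its small spread went with replicate number.

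Chit1 (chr1:134111242-134151541) was the gene with the largest rise of all 19938 in R1984A cells under both treatments. Its values were 6.37, 5.24 and 6.30 in R1984A-GSI cells and 5.12, 4.46 and 5.12 in ICN1-GSI cells, against 3.11 to 3.49 over all 12 DNMAML and MigR1 arrays. In DMSO they were 6.20, 6.05 and 6.41 in R1984A cells and 5.75, 5.0 and 5.68 in ICN1 cells. Chit1 was thus above the median of the own array on each of the 12 arrays with added Notch1 and below it on each of the 12 arrays without, and the groups with and without added Notch1 did not overlap. The differences from MigR1 were 2.66 for R1984A and 1.59 for ICN1 in GSI, and 2.88 for R1984A and 2.14 for ICN1 in DMSO (SE 0.23 each). DNMAML minus MigR1 was -0.14 in GSI and -0.04 in DMSO, between levels that were low in both.

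In order of level the groups ran R1984A-DMSO, R1984A-GSI, ICN1-DMSO, ICN1-GSI, MigR1-DMSO, MigR1-GSI, DNMAML-DMSO and DNMAML-GSI, and neighbours in that order overlapped except ICN1-GSI and MigR1-DMSO. R1984A minus ICN1 was 1.07 for Chit1 in GSI and 0.74 in DMSO. The 3 arrays of R1984A and of ICN1 were separate under each treatment, but R1984A-GSI replicate 2, at 5.24, fell below 2 of the ICN1-DMSO arrays. Without that array R1984A-GSI minus MigR1-GSI was 3.03 and R1984A-GSI minus ICN1-GSI was 1.44. With arrays weighted by their fit R1984A-GSI minus MigR1-GSI was 2.19. Chit1 varied more within groups than most genes, with a residual spread at percentile 95.2 of all genes, against percentile 60.6 for Pdgfrb.

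Chit1 is the only one of the 5 genes with a promoter in the RefSeq table used here (GRCm38.p6), and its 250 bases before the annotated start (chr1:134110992-134111241, plus strand) are shown because no other gene differed upward as much in R1984A minus MigR1. Chit1 stood in place 28 in ICN1-GSI minus MigR1-GSI and in place 7 in ICN1-DMSO minus MigR1-DMSO. Beside it stand the same windows of Rras2 (chr7:114117782-114118031, minus strand) and Serpinb8 (chr1:107589756-107590005, plus strand), the genes with the highest Pearson's r with Chit1 and Cdh1 over the arrays. All are written 5′ to 3′ on the strand of the gene, and capitals mark TGGGAA or its reverse complement TTCCCA, the core of the RBPJ motif.
Chit1: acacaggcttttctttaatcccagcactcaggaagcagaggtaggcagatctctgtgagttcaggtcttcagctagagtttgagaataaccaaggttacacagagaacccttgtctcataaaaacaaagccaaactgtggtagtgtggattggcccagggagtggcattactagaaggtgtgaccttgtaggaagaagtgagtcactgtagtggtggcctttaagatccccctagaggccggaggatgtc
Rras2: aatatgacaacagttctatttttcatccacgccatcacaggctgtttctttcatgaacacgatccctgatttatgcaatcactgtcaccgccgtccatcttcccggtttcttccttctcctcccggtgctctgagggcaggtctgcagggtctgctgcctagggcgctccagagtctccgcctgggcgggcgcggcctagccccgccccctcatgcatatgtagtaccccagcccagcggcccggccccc
Serpinb8: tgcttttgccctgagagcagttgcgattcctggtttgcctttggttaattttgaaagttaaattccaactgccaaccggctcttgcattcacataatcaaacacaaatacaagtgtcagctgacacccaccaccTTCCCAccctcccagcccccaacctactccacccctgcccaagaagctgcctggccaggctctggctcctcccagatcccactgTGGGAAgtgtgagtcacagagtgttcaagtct
The Chit1 and Rras2 windows held 0 matches. The Serpinb8 window held 2, on opposite strands, at -116 to -111 and at -32 to -27 relative to the start. Their order and spacing were not set against those of a head-to-head pair, so they are not read as such a pair. Of 32851 such windows in the table, 21.6% held at least 1 match and 2.77% held at least 2. A match is a run of letters, not a measured binding site, and a window without one says nothing of binding elsewhere.

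Cdh1 (chr8:106603350-106670247) was highest in ICN1 cells rather than in R1984A cells. Its values were 5.56, 5.43 and 5.45 in R1984A-GSI, 6.08, 5.97 and 5.64 in ICN1-GSI, 4.38, 4.29 and 4.71 in DNMAML-GSI, and 4.74, 4.77 and 4.76 in MigR1-GSI cells. In DMSO they were 5.64, 5.67 and 5.5 in R1984A, 5.91, 6.01 and 5.79 in ICN1, 4.25, 4.55 and 4.67 in DNMAML, and 5.46, 4.99 and 5.08 in MigR1 cells. R1984A arrays lay below ICN1 arrays within each treatment, and DNMAML arrays lay below MigR1 arrays within each treatment. The difference from MigR1 was 0.73 for R1984A and 1.14 for ICN1 in GSI, and 0.43 for R1984A and 0.73 for ICN1 in DMSO (SE 0.14 each). R1984A minus ICN1 was -0.41 in GSI and -0.30 in DMSO. DNMAML minus MigR1 was -0.30 in GSI and -0.68 in DMSO. With the arrays of replicate 1 left out, the difference in DMSO was -0.42. In order of level the groups ran ICN1-DMSO, ICN1-GSI, R1984A-DMSO, R1984A-GSI, MigR1-DMSO, MigR1-GSI, DNMAML-DMSO and DNMAML-GSI, and of neighbours in that order only MigR1-DMSO with MigR1-GSI and MigR1-GSI with DNMAML-DMSO had separate arrays.

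Cdh17 (chr4:11758157-11817905) ran the other way and was highest in DNMAML cells. Its values were 6.72, 6.82 and 6.44 in DNMAML-GSI cells, against 6.35, 6.03 and 5.72 in MigR1-GSI cells, and 6.90, 6.87 and 6.57 in DNMAML-DMSO cells, against 5.64, 5.78 and 5.84 in MigR1-DMSO cells. DNMAML minus MigR1 was 0.63 in GSI and 1.03 in DMSO (SE 0.21 each), with separate arrays under both treatments. Cells with added Notch1 had 5.68, 5.75 and 5.53 in R1984A-GSI, 5.82, 6.06 and 5.37 in R1984A-DMSO, 5.76, 5.69 and 5.05 in ICN1-GSI, and 5.54, 5.41 and 4.68 in ICN1-DMSO.

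ICN1 minus MigR1 was -0.53 in GSI and -0.55 in DMSO for Cdh17, while R1984A minus MigR1 was -0.38 in GSI and 0.00 in DMSO. R1984A-DMSO and MigR1-DMSO arrays overlapped, and so did R1984A and ICN1 arrays under both treatments. Replicate 3 was the lowest array in 7 of the 8 groups, and ICN1-DMSO replicate 3, at 4.68, was the lowest of all. Without that array ICN1-DMSO minus MigR1-DMSO was -0.28. The groups ran, by level, DNMAML-DMSO, DNMAML-GSI, MigR1-GSI, MigR1-DMSO, R1984A-DMSO, R1984A-GSI, ICN1-GSI and ICN1-DMSO, and only DNMAML-GSI and MigR1-GSI were neighbours with separate arrays. Within the 5 genes Cdh17 had the widest residual spread after Chit1, at percentile 92.4 of all genes.

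**Figure D2:**
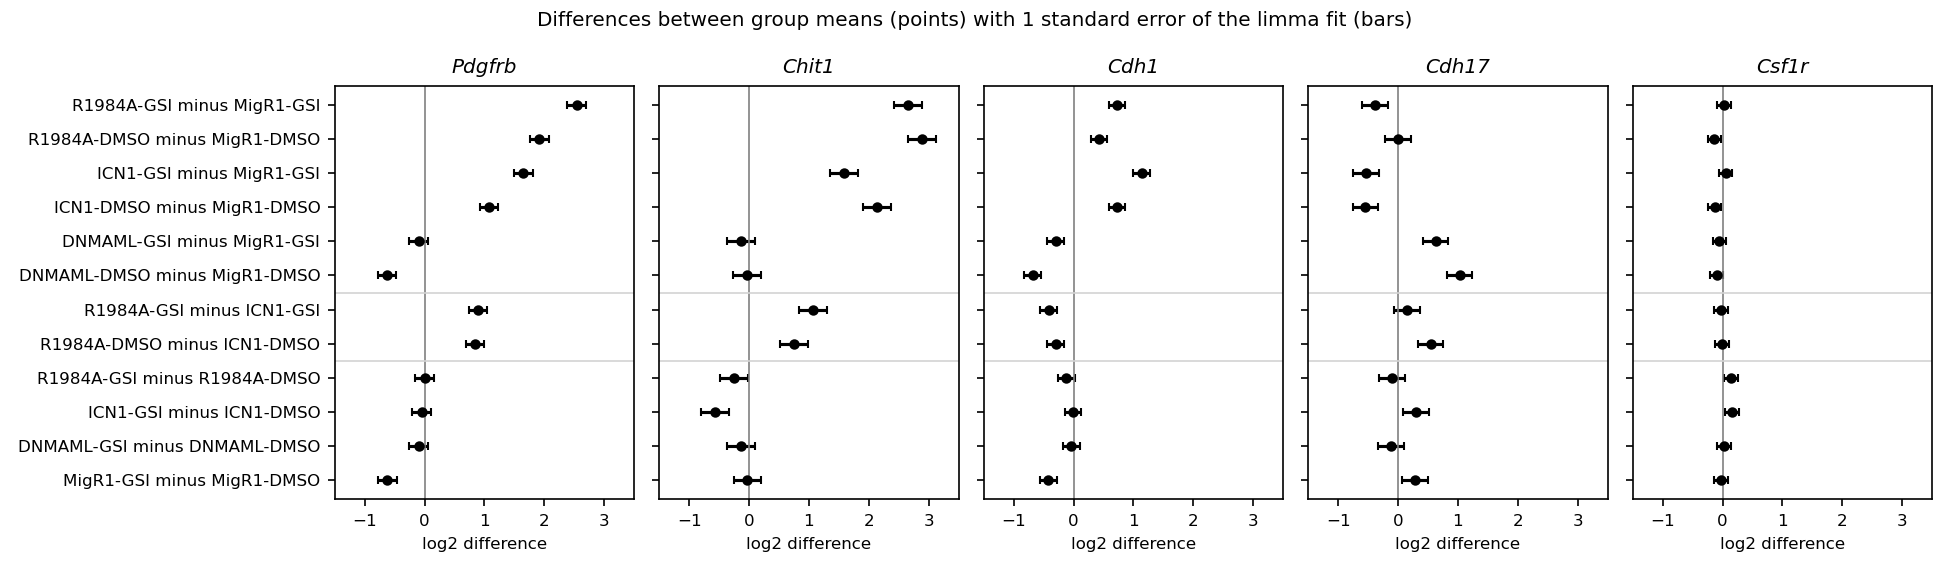
Log2 differences between groups for the 5 genes; points are differences of means of 3 arrays and bars reach 1 standard error of the limma fit to each side. Pdgfrb and Chit1 differ upward from MigR1 in R1984A and ICN1 cells, Cdh17 differs upward in DNMAML cells, and Csf1r lies near 0 throughout.

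Counts over the 5 genes follow from how they were chosen and are read against the share of all genes called at a limma adjusted p under 0.05. In R1984A-GSI minus MigR1-GSI 3 of 5 were called, where 1.36% of all genes were, and in ICN1-GSI minus MigR1-GSI 3 of 5, where 2.35% were. In DMSO 2 of 5 were called for R1984A minus MigR1 (0.978% of all genes), 3 of 5 for ICN1 minus MigR1 (0.727%) and 3 of 5 for DNMAML minus MigR1 (1.94%). R1984A minus ICN1 gave 2 of 5 in GSI (1.1%) and 1 of 5 in DMSO (0.963%), and DNMAML-GSI minus MigR1-GSI gave 0 of 5 (0.191%). For the comparisons whose like-numbered samples deviated together, a fit with the replicate block called 366, 297 and 934 genes for R1984A, ICN1 and DNMAML minus MigR1 in DMSO, in place of 195, 145 and 386. The block gave 163 genes for DNMAML-GSI minus MigR1-GSI, in place of 38, and 456 for R1984A-DMSO minus ICN1-DMSO, in place of 192. With the block DNMAML-GSI minus MigR1-GSI gave 1 of 5, which was Cdh17, and R1984A-DMSO minus ICN1-DMSO gave 3 of 5, with Chit1 and Cdh17 added to Pdgfrb. Of the uncalled construct differences the nearest to the threshold, though well outside it, was Chit1 in R1984A-DMSO minus ICN1-DMSO, at 0.74. Of the called ones the nearest was Pdgfrb in DNMAML-DMSO minus MigR1-DMSO, at -0.63.

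The alternative fits reuse the arrays by which Pdgfrb, Chit1, Cdh1 and Cdh17 were chosen, so a kept call lends no support to a difference. The calls of the 5 genes were not equally stable. Those of Pdgfrb and Chit1 in R1984A minus MigR1 under both treatments, of Chit1 in ICN1-DMSO minus MigR1-DMSO, and of Pdgfrb, Chit1 and Cdh1 in ICN1-GSI minus MigR1-GSI were lost under 0 of 15 alternatives. The call of Pdgfrb in DNMAML-DMSO minus MigR1-DMSO was lost under 10 of 15, among them each array of these groups left out (-0.69 to -0.57). That of Chit1 in R1984A-GSI minus ICN1-GSI was lost under 7 of 15, among them R1984A-GSI replicate 1 or 3 left out (0.87 and 0.91) and ICN1-GSI replicate 2 left out (0.85). Cdh1 lost its call under 5 of 15 in DNMAML-DMSO minus MigR1-DMSO, among them DNMAML-DMSO replicate 1 (-0.56) or MigR1-DMSO replicate 1 (-0.54) left out. It also lost it under 5 of 15 in ICN1-DMSO minus MigR1-DMSO, among them ICN1-DMSO replicate 2 (0.67) or MigR1-DMSO replicate 2 or 3 (0.63 and 0.68) left out. Cdh17 lost its call in DNMAML-DMSO minus MigR1-DMSO under 4 of 15, among them DNMAML-DMSO replicate 1 or 2 left out (0.97 and 0.98). Pdgfrb lost its call under 3 of 15 in R1984A minus ICN1 under each treatment and under 1 of 15 in ICN1-DMSO minus MigR1-DMSO, and Cdh1 under 2 of 15 in R1984A-GSI minus MigR1-GSI, none of them with 1 array left out.

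The response to 6 hours of GSI was tested for all 5 genes. In MigR1 cells, which carry no added Notch1, the GSI minus DMSO difference of Pdgfrb was -0.62 (SE 0.16, limma adjusted p = 0.18), with the 3 GSI arrays below the 3 DMSO arrays. Samples of the same number deviated together in this comparison, and with the replicate number as a block the limma adjusted p was 0.047, when 82 genes were called in place of 33. For Cdh1 the GSI minus DMSO difference was -0.42 (SE 0.14, limma adjusted p = 0.61), again with the GSI arrays all below the DMSO arrays. With 3 arrays in a group such separation can occur with no difference, so it lends no support to either difference. None of the 5 genes was called without the block, where 0.166% of all genes were. The difference was 0.28 for Cdh17 (SE 0.21, limma adjusted p = 1.00), -0.03 for Chit1 and -0.02 for Csf1r.

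In cells that carried R1984A, ICN1 or DNMAML none of the 5 genes was called. Between GSI and DMSO Pdgfrb differed by 0.00 in R1984A, -0.05 in ICN1 and -0.10 in DNMAML cells (95% intervals -0.32 to 0.32, -0.37 to 0.27 and -0.42 to 0.22). Cdh1 differed by -0.12 in R1984A, -0.01 in ICN1 and -0.04 in DNMAML cells. Chit1 differed by -0.58 in ICN1 cells (SE 0.23, limma adjusted p = 1.00) with overlapping arrays, and by -0.25 in R1984A cells, where the value was 0.11 without R1984A-GSI replicate 2. Of all genes 0% were called in R1984A and in ICN1 cells, and 0.00502% in DNMAML cells. At an unadjusted p under 0.05 limma found 635 of 19938 genes in R1984A and 472 in ICN1 cells. Both lie below the share of 0.05 that this threshold would pass with no response, so they are not read as a response.

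Whether the GSI response itself differed between constructs was tested as an interaction. It combines the construct differences in GSI and in DMSO, so for Pdgfrb, Chit1, Cdh1 and Cdh17 it was not free of the choice. For Pdgfrb the response in R1984A cells minus that in MigR1 cells was 0.62, in ICN1 cells 0.57 and in DNMAML cells 0.52 (SE 0.22 each, limma adjusted p = 1.00 each). For Cdh1 the same differences were 0.30, 0.41 and 0.39 (SE 0.20 each). All were in the direction of a smaller loss than in MigR1 cells, and none passed the test, as was so for Csf1r, Chit1 and Cdh17. Of all genes 0.0251%, 0.015% and 0.00502% were called in these interactions for R1984A, ICN1 and DNMAML.

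Few relatives of these genes were called. Here and for the lists that follow, at most 2.35% of all genes were called in a single contrast. No call in a short list therefore lies near the share of all genes, while the calls among the catenins and cadherin partners below lay above it. The share called over all contrasts together was not counted. Of the 13 measured class III receptor tyrosine kinases and ligands, Kit, the stem cell factor receptor, was called besides Pdgfrb, in the opposite direction to Pdgfrb against MigR1 but in the same direction in R1984A-DMSO minus ICN1-DMSO. Kit values were 6.60, 6.68 and 6.55 in DNMAML-DMSO cells, against 5.5, 5.47 and 5.70 in MigR1-DMSO cells, a difference of 1.05 (SE 0.12, limma adjusted p = 2.0e-05). ICN1-GSI minus MigR1-GSI was -0.93 for Kit (limma adjusted p = 2.4e-05) and R1984A-GSI minus MigR1-GSI was -0.54 (limma adjusted p = 0.017). The R1984A-GSI call of Kit was lost without R1984A-GSI replicate 2, at -0.37 (limma adjusted p = 0.18), and without MigR1-GSI replicate 1 or 3, at -0.49 and -0.53 (limma adjusted p = 0.11 and 0.058). R1984A-DMSO minus ICN1-DMSO was 0.52 for Kit (limma adjusted p = 0.030), a call lost with any 1 array of these groups left out (0.48 to 0.57, limma adjusted p = 0.055 to 0.15). Pdgfra, the sister receptor of Pdgfrb, lay between 2.97 and 3.85 on all 24 arrays, below the median of the own array on each. Pdgfb, the ligand of Pdgfrb, averaged 4.65 in R1984A-GSI and 5.04 in MigR1-GSI cells, a difference of -0.39 (SE 0.15, limma adjusted p = 0.46).

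Of 9 measured chitinase-family genes Chit1 alone was called in any contrast. Chil1, the chitinase-like gene beside Chit1 on chromosome 1, averaged 3.52 in R1984A-GSI and 3.5 in MigR1-GSI cells. Of 23 measured cadherins Cdh1 and Cdh17 alone were called, and Cdh3, which encodes P-cadherin and adjoins Cdh1, averaged 3.26 in R1984A-GSI and 3.37 in MigR1-GSI cells. In R1984A-GSI minus MigR1-GSI the median difference was 0.02 over the PDGF family of 7, -0.01 over the chitinases and 0.08 over the cadherins, members included, beside -0.01 over all genes.

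**Figure D3:**
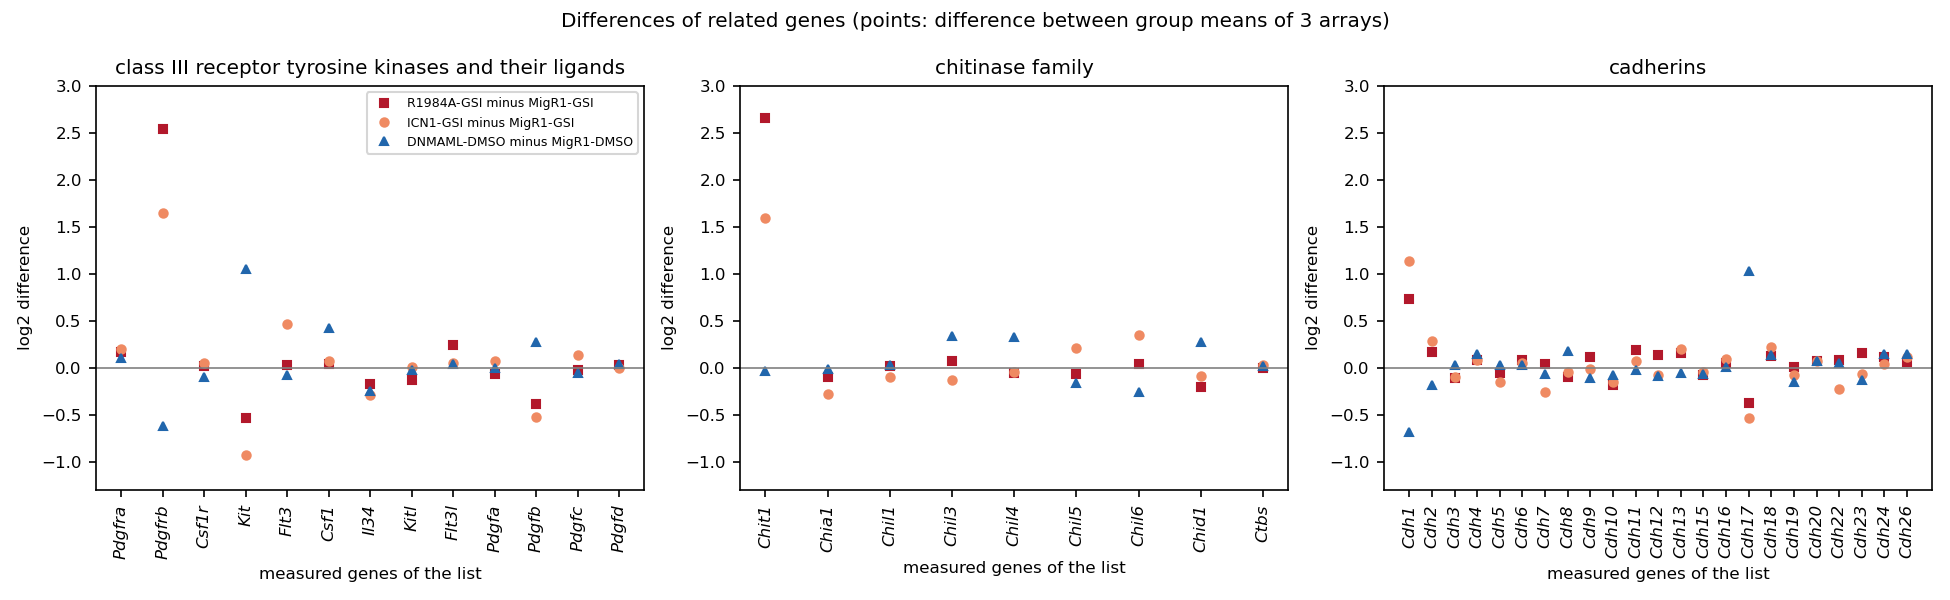
Log2 differences of the measured class III receptor tyrosine kinases with their ligands, chitinase-family genes and cadherins for R1984A-GSI minus MigR1-GSI, ICN1-GSI minus MigR1-GSI and DNMAML-DMSO minus MigR1-DMSO; each point is a difference of means of 3 arrays. Pdgfrb reaches 2.54 and Chit1 2.66 in R1984A-GSI cells, Cdh1 reaches 1.14 in ICN1-GSI cells, and Kit differs by 1.05 in DNMAML-DMSO cells.

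Among 15 catenins and cadherin partners the genes called were Ctnnd1, Nectin1 and Afdn. All of these were called in ICN1-GSI minus MigR1-GSI, where 2.35% of all genes were. Ctnnd1 and Nectin1 were also called in R1984A-GSI minus MigR1-GSI, where 1.36% of all genes were. The called share of this list was thus above that of all genes in both contrasts. The list was chosen with earlier results of these data known, so this is a description. Ctnnd1, which encodes the p120 catenin that binds cadherin tails, averaged 8.19 in R1984A-GSI and 8.01 in ICN1-GSI, against 7.49 in MigR1-GSI cells, which gave 0.70 for R1984A (limma adjusted p = 2.3e-04) and 0.52 for ICN1 (limma adjusted p = 0.0040). Nectin1, a junctional adhesion molecule, rose by 0.91 in R1984A-GSI and by 0.88 in ICN1-GSI cells (limma adjusted p = 0.0020 and 0.0018). Afdn, the nectin-binding afadin, differed by -1.12 between DNMAML-DMSO and MigR1-DMSO cells (limma adjusted p = 5.8e-06) and by 0.66 between ICN1-GSI and MigR1-GSI cells (limma adjusted p = 9.5e-04). Beta-catenin (Ctnnb1) averaged 7.81 in R1984A-GSI and 7.88 in MigR1-GSI cells.

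Of 9 repressors of Cdh1 only Tcf4 was called, at 0.56 in ICN1-GSI minus MigR1-GSI (limma adjusted p = 9.4e-04) and 0.42 in R1984A-GSI minus MigR1-GSI (limma adjusted p = 0.021). Tcf4, a basic helix-loop-helix repressor, thus rose in the same cells as Cdh1, though the R1984A-GSI call was lost under 10 of 15 alternatives, with an adjusted p up to 0.68, among them each R1984A-GSI array left out (0.40 to 0.44) and MigR1-GSI replicate 1 or 3 left out (0.38 and 0.43). Zeb1, another repressor, averaged 7.68 in ICN1-GSI and 7.90 in MigR1-GSI cells. None of 5 integrin partners was called.

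Markers of the cell types in which these genes are best known were, with 1 exception, not called. At most 2.35% of all genes were called in a single contrast, so the lack of calls in these short lists lies near that share. None of the 17 monocyte and macrophage, 12 epithelial, 7 intestinal and 7 B-cell markers was called in any contrast, and of 14 mural and fibroblast markers only Thy1 was, which T cells also express, at 0.72 in DNMAML-DMSO minus MigR1-DMSO (limma adjusted p = 0.0079), a call lost without MigR1-DMSO replicate 3 (0.65, limma adjusted p = 0.063). Of the T-cell markers Thy1, Cd247 (1.08 in DNMAML-DMSO minus MigR1-DMSO, limma adjusted p = 0.0010) and Ptprc (-0.66 in ICN1-GSI minus MigR1-GSI, limma adjusted p = 0.0019) were called. The mean level of the macrophage list lay between 3.28 and 3.46 on R1984A-GSI arrays and between 3.44 and 3.49 on MigR1-GSI arrays. That of the mural and fibroblast list lay between 3.95 and 4.18 in R1984A-GSI and between 4.03 and 4.28 in MigR1-GSI cells. Beside Cdh1, the epithelial list lay between 3.43 and 3.57 in ICN1-GSI and between 3.31 and 3.57 in MigR1-GSI cells. Beside Cdh17, the intestinal list lay between 3.51 and 3.75 in DNMAML-DMSO and between 3.56 and 3.64 in MigR1-DMSO cells, and the B-cell list between 3.52 and 3.72 in DNMAML-DMSO and between 3.55 and 3.59 in MigR1-DMSO cells. The ranges overlapped in these pairs. Of 72 comparisons of the 6 marker lists between pairs of groups, 5 had separate ranges. With 3 arrays in a group ranges can be separate with no difference, and how often was not worked out, so the 5 are a description. The T-cell list lay between 8.42 and 8.55 in DNMAML-DMSO cells, where Cdh17 was highest, and between 7.88 and 8.0 in ICN1-DMSO cells, where it was lowest, against 8.11 to 8.31 in MigR1-DMSO cells, and it was between 8.05 and 8.29 in R1984A-DMSO cells. Under GSI the T-cell list did not separate from MigR1. It lay between 8.31 and 8.44 in DNMAML-GSI and between 7.92 and 8.10 in ICN1-GSI cells, against 8.06 to 8.34 in MigR1-GSI cells. The intestinal list lay between 3.46 and 3.51 in ICN1-DMSO cells, separate from MigR1-DMSO cells and from ICN1-GSI cells (3.56 to 3.74). The part of either list in the Cdh17 values was not tested.

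The 5 measured genes on each side of each member were tested to see whether a difference reached past the gene itself. Around Cdh17 the nearest gene on each side was called, in the direction of Cdh17. Gem, a small GTPase of the RGK family that lies 43.2 kb before Cdh17, had 9.77, 10.03 and 9.94 in DNMAML-DMSO cells and 8.82, 8.89 and 8.52 in ICN1-DMSO cells, against 9.34, 9.36 and 9.29 in MigR1-DMSO cells. These arrays did not overlap in either direction. DNMAML minus MigR1 was 0.59 (limma adjusted p = 0.0088) and ICN1 minus MigR1 was -0.59 in DMSO (limma adjusted p = 0.017) and -0.82 in GSI (limma adjusted p = 1.7e-04).

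Pdp1, a pyruvate dehydrogenase phosphatase that lies 140.3 kb beyond Cdh17, had the same order. Its DNMAML-DMSO minus MigR1-DMSO difference was 0.50 (limma adjusted p = 0.020), and ICN1 minus MigR1 was -0.70 in DMSO (limma adjusted p = 0.0014) and -1.02 in GSI (limma adjusted p = 4.1e-06). R1984A minus ICN1 was 0.62 for Gem and 0.69 for Pdp1 in GSI (limma adjusted p = 0.0084 and 0.0017). In GSI the ICN1 minus MigR1 differences of both neighbours were called under all 15 alternatives. In DMSO the DNMAML minus MigR1 call was lost under 4 of 15 alternatives for Gem, with an adjusted p up to 0.32, among them DNMAML-DMSO replicate 2 left out (0.53) and MigR1-DMSO replicate 3 left out (0.57). For Pdp1 it was lost under 8 of 15, with an adjusted p up to 0.46, among them each DNMAML-DMSO array and MigR1-DMSO replicate 1 or 2 left out (0.47 to 0.52). The ICN1-DMSO call of Gem was lost without ICN1-DMSO replicate 3 (-0.48, limma adjusted p = 0.18) and without each of the MigR1-DMSO arrays (-0.61 to -0.57), and its R1984A-GSI minus ICN1-GSI call without ICN1-GSI replicate 3 (0.51) or R1984A-GSI replicate 2 (0.57). Over the 24 arrays Gem correlated with Cdh17 at r = 0.89 and Pdp1 at r = 0.86, in places 71 and 173 among all genes. Similar r were found around other members, with Slc7a6os (0.87) and Sntb2 (0.84) for Cdh1 and Fmod (0.84) for Chit1. All other neighbours had lower r. These r are a description over arrays that share groups and carry no test.

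Around the other genes the adjoining neighbours were not called. Beside Pdgfrb lie Cdx1 and Csf1r, beside Chit1 lie Btg2 and Chil1, and beside Cdh1 lie Cdh3 and Tango6. Farther off, Lax1, 418.2 kb before Chit1, was 1.06 higher in R1984A-GSI than in MigR1-GSI cells (limma adjusted p = 1.3e-04), and Fmod, 63.0 kb before Chit1, differed by 0.76 between ICN1-GSI and MigR1-GSI cells (limma adjusted p = 0.015), a call lost without ICN1-GSI replicate 1 (0.66) or MigR1-GSI replicate 1 or 2 (0.62 and 0.76). Slc7a6os, 392.4 kb before Cdh1, differed by 0.68 between the same groups (limma adjusted p = 1.2e-04). Camk2a, 57.0 kb before Pdgfrb, was 0.54 higher in R1984A-DMSO than in ICN1-DMSO cells (limma adjusted p = 0.015), and not called without R1984A-DMSO replicate 1 (0.45) or ICN1-DMSO replicate 3 (0.48). In all, 2 of the 40 neighbours were called in R1984A-GSI minus MigR1-GSI (1.36% of all genes) and 5 of 40 in ICN1-GSI minus MigR1-GSI (2.35%). DNMAML-GSI minus MigR1-GSI gave 0 of 40 (0.191%). In DMSO the counts for R1984A, ICN1 and DNMAML minus MigR1 were 1, 2 and 2 of 40 (0.978%, 0.727% and 1.94%). R1984A minus ICN1 gave 2 of 40 in GSI (1.1%) and 3 of 40 in DMSO (0.963%).

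**Figure D4:**
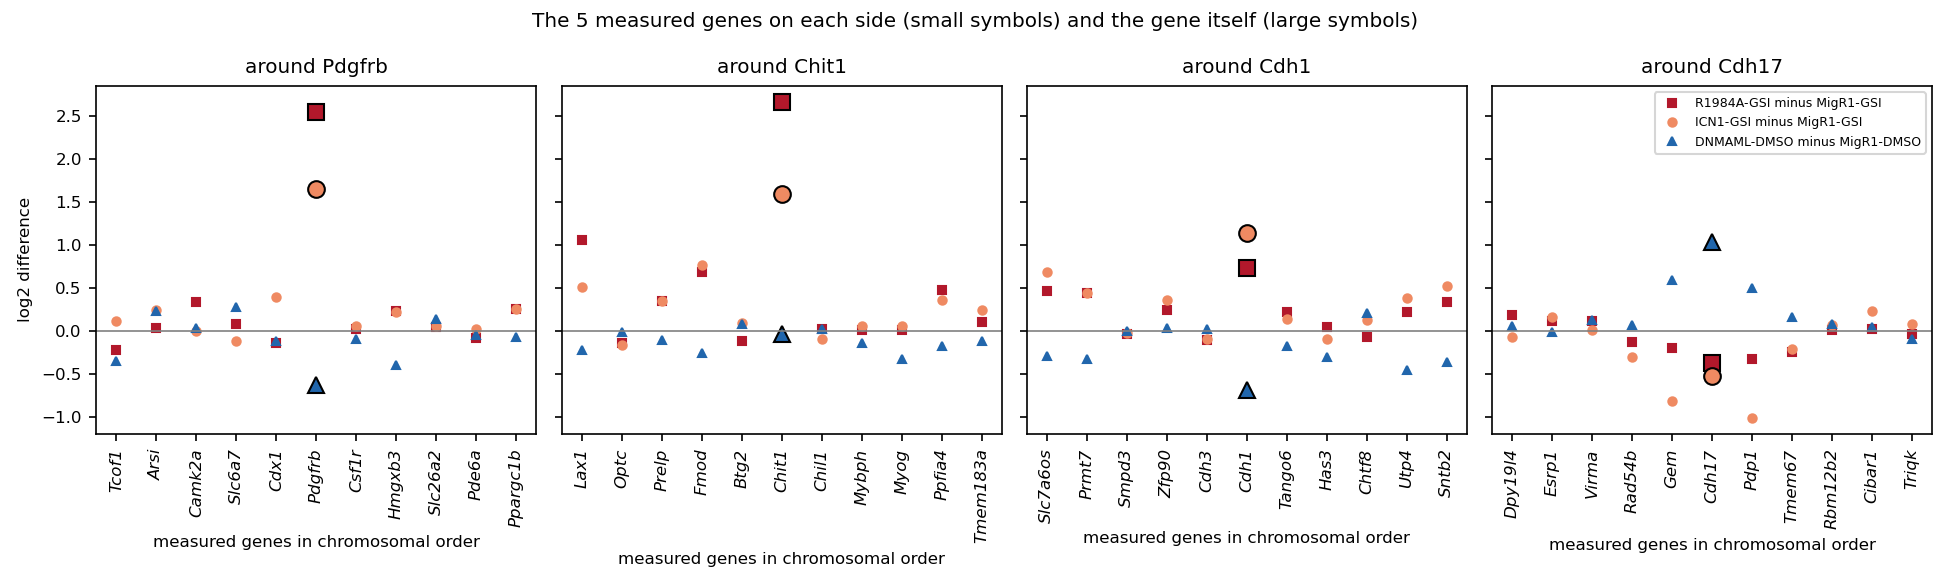
Log2 differences of Pdgfrb, Chit1, Cdh1 and Cdh17 (large symbols) and of the 5 measured genes on each side in chromosomal order (small symbols), for R1984A-GSI minus MigR1-GSI, ICN1-GSI minus MigR1-GSI and DNMAML-DMSO minus MigR1-DMSO. Gem and Pdp1 differ in the direction of Cdh17, at 0.59 and 0.50 in DNMAML-DMSO minus MigR1-DMSO, while Csf1r beside Pdgfrb lies near 0.

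The genes most like each member were found by Pearson's r over the 24 arrays. Pdgfrb was followed most closely by Tacc2 (r = 0.966), Dlg1 (0.965), Mical1 (0.965), Rras2 (0.963) and Pkp4 (0.958). Chit1 was followed by Rras2 (r = 0.962), Mical1 (0.952), Pdgfrb (0.951), Cd7 (0.945) and Morrbid (0.939). Rras2, a Ras-related GTPase, shared the order R1984A, ICN1, MigR1: it averaged 9.97 in R1984A-GSI and 9.38 in ICN1-GSI, against 8.25 in MigR1-GSI cells.

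Cdh1 was followed by Serpinb8 (r = 0.951), Rbms1 (0.950), Nrarp (0.935), Prf1 (0.933) and Agfg1 (0.930). Nrarp, a Notch-induced inhibitor of Notch signalling, is a known Notch target. Serpinb8, a serine protease inhibitor, averaged 6.30 in R1984A-GSI and 8.0 in ICN1-GSI, against 4.71 in MigR1-GSI cells. Like Cdh1 it was lower in R1984A-GSI than in ICN1-GSI cells, by a larger difference, at -1.70. Serpinb8 was picked by its likeness to Cdh1 on these same arrays, so its difference is a description with no p-value. Cdh17 was followed by Dock8 (r = 0.945), Skap1 (0.945), Grn (0.940), Arhgap4 (0.939) and Spata6 (0.938). Between members r was 0.795 for Pdgfrb with Cdh1, -0.807 for Cdh1 with Cdh17 and 0.030 for Pdgfrb with Csf1r. For Csf1r the most alike were Pofut1 (r = 0.858), Gpbar1 (0.805), Tnni2 (0.799), Ager (0.797) and Dnah3 (0.796), at lower r than for the other members. All r are descriptions over 24 arrays that share 8 groups, and the choice of measure changes which genes come first. Of the 5 genes named for each member, those also among the first 5 by Spearman's rho were 3 for Pdgfrb, 4 for Csf1r, 0 for Chit1, 1 for Cdh1 and 0 for Cdh17. By Pearson's r over the 8 group means they were 2 for Pdgfrb, 0 for Csf1r, 2 for Chit1, 1 for Cdh1 and 2 for Cdh17.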

How the data were processed

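RNA was measured on 24 Affymetrix Mouse Gene 1.0 ST arrays. The table the authors deposited holds log2 expression for each probe set, and the submitters' processing notes name the R packages oligo and limma. For versions, background correction and normalization, the sources used here give nothing. The scale was read from the range, 1.28 to 13.47, and the array medians lay between 3.90 and 4.18. Values were used without further scaling.

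Of 35556 probe sets, 21789 had 1 symbol, 1621 several and 12146 none in the table used here. The probe set with the highest mean was kept for each gene, which left 19938. RefSeq (GRCm38.p6) gave positions, gene order and promoters.

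Differences were fitted in R 4.3.3 by limma 3.58.1, all arrays entering 1 model of group means, with Benjamini-Hochberg adjustment over all genes in each contrast. The fit was tested on simulated data. The 5 members and all gene lists were chosen with earlier results of these data known. Neighbours were the 5 measured genes on each side. Genes alike were the 5 with the highest Pearson's r, clone names left out. From the lists, called genes and the relatives nearest to a member were named. Samples numbered alike deviated together in 8 of the 15 contrasts, each pair with a correlation over 0.1, by the titles' numbers and the values. The number of arrays limits the precision. Alternatives were quantile normalization, a filter on dim genes, every probe set, array weights, only the groups compared, the replicate block and leaving out arrays.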

Additional observations from a re-analysis of the deposited data

How the results depend on the processing

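Over 75 differences of the 5 genes, 1200 values under alternatives gave 22 whose value moved by more than the replicate spread, and 0 called differences changed sign. Of 17 called differences 255 values under alternatives gave 40 no longer called, and of 58 uncalled ones 945 gave 7 newly called. The replicate block gave 5 of these: Pdgfrb in MigR1-GSI minus MigR1-DMSO (-0.62), Chit1 in R1984A-DMSO minus ICN1-DMSO (0.74), and Cdh17 in R1984A-DMSO minus ICN1-DMSO (0.54), DNMAML-GSI minus MigR1-GSI (0.63) and ICN1-GSI minus MigR1-GSI (-0.53). Array weights gave 2: Cdh1 in R1984A-DMSO minus MigR1-DMSO (0.51) and R1984A-GSI minus ICN1-GSI (-0.50). Array weights moved Chit1 to 2.19 in R1984A-GSI minus MigR1-GSI, to -0.66 in R1984A-GSI minus R1984A-DMSO and to -0.64 in the R1984A interaction. Of 39 called differences of neighbours and listed genes, 585 values under alternatives gave 419 still called, 166 no longer called and 0 reversed. Csf1r has no value under the filter on dim genes. Leaving out arrays gave Pdgfrb 0.85 to 1.23 for ICN1-DMSO minus MigR1-DMSO, 0.70 to 1.07 for R1984A-DMSO minus ICN1-DMSO, -0.19 to 0.18 for GSI in ICN1 cells and 0.43 to 0.80 for the ICN1 interaction. It gave Chit1 2.43 to 3.03 for R1984A-GSI minus MigR1-GSI, 0.85 to 1.44 for R1984A-GSI minus ICN1-GSI, -0.46 to 0.11 for GSI in R1984A cells and -0.43 to 0.14 for the R1984A interaction. It gave Cdh1 -0.82 to -0.42 for DNMAML-DMSO minus MigR1-DMSO, 0.16 to 0.60 for the DNMAML and 0.18 to 0.54 for the ICN1 interaction. It gave Cdh17 -0.77 to -0.24 for ICN1-DMSO minus MigR1-DMSO, 0.28 to 0.73 for R1984A-DMSO minus ICN1-DMSO, 0.029 to 0.52 for GSI in ICN1 cells, and -0.25 to 0.26 and -0.70 to -0.14 for the ICN1 and R1984A interactions. The cause of these moves was not tested beyond the arrays named.

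Counts of called genes moved too. For R1984A, ICN1 and DNMAML minus MigR1 in DMSO they were 195, 145 and 386, with array weights 338, 316 and 834, with the replicate block 366, 297 and 934, and with arrays left out 31 to 155, 25 to 108 and 11 to 318. For the same in GSI they were 272, 469 and 38, with weights 690 and 90 (R1984A and DNMAML), with the block 496, 960 and 163, with only the groups compared 96, 167 and 5, and with arrays left out 78 to 244, 151 to 411 and 0 to 23. R1984A-DMSO minus MigR1-DMSO gave 129 with only the groups compared. R1984A minus ICN1 gave 192 in DMSO and 220 in GSI, with weights 384 and 739, with the block 456 and 577, and with arrays left out 20 to 145 and 27 to 184, with 51 in GSI for only the groups compared. GSI in MigR1 cells gave 33, with weights 51, with the block 82, with only the groups compared 4, and with arrays left out 2 to 21. GSI in DNMAML cells gave 1, with only the groups compared 0, and with arrays left out 0 to 2, and GSI in ICN1 cells gave 0, with the block 1 and with arrays left out 0 to 1. The interactions of R1984A, ICN1 and DNMAML gave 5, 3 and 1, with weights 16, 8 and 2, with the block 12, 7 and 4, and with arrays left out 0 to 6, 0 to 5 and 0 to 3. For R1984A, only the groups compared gave 0 and every probe set gave 3. The block is a paired fit by the numbers in the titles, and in the comparisons where like-numbered samples did not all deviate together it is a count only. Without arrays fewer degrees of freedom remain. Levels below the array median, as of Csf1r and of Chit1 without added Notch1, bound small changes poorly.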
